A study of Mus musculus with 2 samples.

Results

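Pericentral sinusoidal endothelial cells line the liver sinusoid next to the central vein. They were taken here from raw UMIs (unique molecular identifiers, one per captured transcript) in 2 droplet single-cell libraries of mouse liver. A barcode needed at least 500 UMIs, 250 genes and at most 20% mitochondrial UMIs. It also needed at least 5 UMIs summed over the sinusoidal genes Stab2, Clec4g, Gpr182, Oit3, Fcgr2b and Kdr. The central vein genes Rspo3, Bmp4, Fbln2 and Selp together had to stay under 5 UMIs, as did the arterial genes Gja5, Npr3, Adgrg6 and Igfbp5, and the leukocyte gene Ptprc could have at most 1. Of the 579 sinusoidal cells this left, the 375 with at least 2 UMIs of Wnt2 plus Kit were called pericentral, among 3035 cells in all. They were 61 Control cells and 314 PCB126 cells. The other 204 sinusoidal cells (92 Control, 112 PCB126) are called midzonal and periportal below.

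The study compared the livers of 2 C57/BL6 mice. The Control mouse received peanut oil by gavage, the vehicle, although its treatment label reads "Untreated". The PCB126 mouse received PCB126, a dioxin-like polychlorinated biphenyl, at 20 µg/kg/day. The labels speak of one gavage and of a dose per day, which cannot both be taken literally. Exposure lasted 5 weeks and ended with an overnight fast, and both mice carry the age label postnatal day 21, with no word on which time point that is. Hepatocytes were removed by low-speed spins and straining, and red cells were lysed. With 1 library per group there was no replicate check and no test. Mouse and treatment cannot be told apart, and every interval below is a 95% interval for counting error only.

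Endothelial cells around the central vein secrete WNT2, WNT9B and R-spondin 3, which act on neighbouring hepatocytes to keep the pericentral metabolic programme on. KIT, the receptor for stem cell factor, marks the sinusoidal cells of that end of the lobule. PCB126 is a ligand of the aryl hydrocarbon receptor (AHR), a transcription factor that with its partner ARNT switches on Cyp1a1, Nqo1 and Tiparp, among others.

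The AHR with ARNT binds a short core, GCGTG, or CACGC on the opposite strand. It was searched on both strands of the 250 bases before each annotated start in RefSeq (GRCm38.p6), and these letters were held by 28.2% of 32851 such windows. The windows of the 3 AHR target genes with the values given next are shown, with the core in capitals. They lie at chr9:57697363-57697612 (plus strand), chr3:65528197-65528446 (plus strand) and chr8:107403206-107403455 (minus strand).
Cyp1a1: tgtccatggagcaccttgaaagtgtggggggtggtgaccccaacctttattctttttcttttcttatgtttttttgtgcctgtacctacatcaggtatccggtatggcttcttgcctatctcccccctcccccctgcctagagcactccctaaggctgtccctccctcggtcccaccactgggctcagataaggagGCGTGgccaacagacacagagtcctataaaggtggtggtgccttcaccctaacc
Tiparp: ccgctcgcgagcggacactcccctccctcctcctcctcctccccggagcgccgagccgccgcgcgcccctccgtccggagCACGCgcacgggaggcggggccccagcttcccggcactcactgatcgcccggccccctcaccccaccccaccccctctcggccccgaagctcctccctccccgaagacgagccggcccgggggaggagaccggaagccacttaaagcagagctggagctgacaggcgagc
Nqo1: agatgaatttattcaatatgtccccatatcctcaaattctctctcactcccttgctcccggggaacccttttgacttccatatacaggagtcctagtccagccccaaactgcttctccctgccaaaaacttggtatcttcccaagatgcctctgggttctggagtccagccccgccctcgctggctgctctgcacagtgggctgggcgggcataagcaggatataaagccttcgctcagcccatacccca
The Cyp1a1 window held the core once, starting 54 bases before the start site. The Tiparp window also held it once, 170 bases before the start, and the Nqo1 window held 0. A match is a description of letters, and binding was not measured.

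Cyp1a1, the monooxygenase most closely tied to AHR activity, separated the 2 libraries almost cell by cell. The gene (ENSMUSG00000032315) lies at chr9:57687928-57703824 on the plus strand of GRCm38. In the 61 Control pericentral cells its UMIs summed to 0. A limit of 3 counts corresponds to 4.92% of these cells, and the exact binomial interval for the share with a UMI reached 5.87%. In the PCB126 library 313 of 314 pericentral cells had a Cyp1a1 UMI (99.7%, with 98.2% as the lower bound of the exact binomial interval), and the sum was 8653 UMIs, or 4580 CPM (UMIs of the gene divided by all UMIs of the summed cells, scaled to counts per 1e6). Against a limit of 3 counts in the Control sum, the PCB126 level was at least 540.04-fold higher, while the exact interval of the ratio began lower, at 439. The log2 ratio with 0.5 counts added, which depends on that addition, was 11.66 and lay between 8.64, with a threshold of 1 Wnt2 plus Kit UMI, and 11.72 over the alternatives. Per cell the PCB126 level ran from 0 over a median of 46.4 to 115 UMIs per 10000, so only the cell without a UMI overlapped the Control cells. After each cell was thinned to 1000 UMIs, 300 of 314 cells (95.5%) still held one. Among 344 PCB126 leukocytes, defined by at least 2 Ptprc UMIs and under 5 UMIs of the sinusoidal genes, 32 (9.30%) had a Cyp1a1 UMI at a median depth of 6808.5 UMIs, and 1.74% after thinning. The median depth of the PCB126 pericentral cells was 5699.5 UMIs.

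The midzonal and periportal cells showed the same contrast at a lower level. Control cells of that class held 19 Cyp1a1 UMIs in 4 of 92 cells (42.7 CPM), and PCB126 cells 1547 UMIs in 105 of 112 cells (3248 CPM, a ratio of 76.1, interval 48.5 to 127). Within the PCB126 library the pericentral level was 1.41 times the midzonal and periportal level (1.34 to 1.49). Along the count of Wnt2 plus Kit UMIs per cell it went from 3357 CPM in 66 cells with 0 to 5298 CPM in 62 cells with 10 or more. The lowest level was not in the first bin but at 1 UMI, 3070 CPM. Median depth was 4479 UMIs in the first bin, 3418 at 1 UMI and 6912 in the last, and the part of depth in this gradient was not tested.

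The rest of the AHR battery was thin. Of 11 listed target genes, 4 were at 0 in the PCB126 pericentral sum and 8 in the Control sum, and only Cyp1a1 and Xdh reached the floor of 50 CPM that was set as the mean over both libraries. Nqo1, a quinone reductase shared by the AHR and NRF2 programmes, had 3 UMIs in Control (8.48 CPM) and 104 in PCB126 (55.0 CPM), a ratio of 6.49 (2.16 to 32.0). It was seen in 3 of 61 Control cells and in 72 of 314 PCB126 cells (22.9%), against 3 of 344 PCB126 leukocytes. Tiparp, an ADP-ribosyltransferase that restrains the AHR, had 7 and 70 UMIs, a ratio of 1.87 whose interval (0.862 to 4.83) included 1. Its log2 ratio of 0.82 became -0.38 in cells with at most 10% mitochondrial UMIs. Leukocytes had a Tiparp UMI more often than pericentral cells in both libraries, 45.9% of them in Control and 29.4% in PCB126. Xdh, xanthine dehydrogenase, stood at 181 and 160 CPM, and its ratio of 0.883 had an interval of 0.673 to 1.18. Ahrr, the AHR repressor, had 0 and 3 UMIs, Cyp1a2 0 and 9, and Cyp1b1 0 and 2.

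The receptor itself was present in both libraries. Ahr stood at 73.5 CPM in Control and 120 CPM in PCB126, a ratio of 1.63 (1.09 to 2.56), and Arnt at a log2 ratio of -0.17. Over the 5 members of the receptor complex past the floor, 4 were above a ratio of 1, with a median log2 ratio of 0.28. That median turned to -0.23 when cells were thinned to 1000 UMIs. All 2949 genes past the floor had a median of 0.05.

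**Figure D1:**
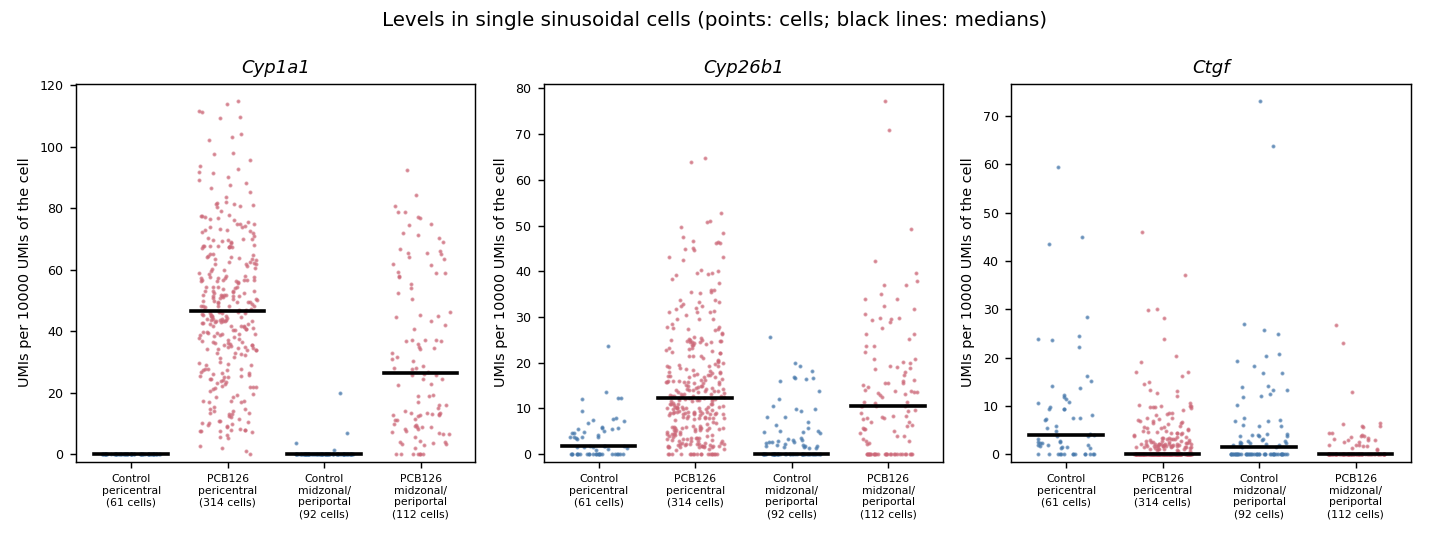
UMIs per 10000 UMIs of each sinusoidal cell (vertical axis) for Cyp1a1, Cyp26b1 and Ctgf in Control (blue) and PCB126 (red) pericentral and midzonal/periportal cells. Points are cells and black lines are medians. Cyp1a1 was at 0 in each of the 61 Control pericentral cells, Cyp26b1 was higher in PCB126 with overlap, and Ctgf was higher in Control with overlap.

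The name of the class was checked on genes outside the rule. The rule's own genes were present by construction: Stab2 in 56 of 61 Control cells and 300 of 314 PCB126 cells, with 0 of 1339 and 8 of 344 leukocytes as background. Of sinusoidal genes that did not choose the cells, the scavenger receptor Stab1 stood at 859 and 642 CPM. The hyaluronan receptor Lyve1 was at 1035 and 975 CPM, the mannose receptor Mrc1 at 2041 and 2232 CPM, and the nuclease Dnase1l3 at 1264 and 1844 CPM. Fcna, also on the sinusoidal list, was nearly absent with 1 and 2 UMIs. That list was written with earlier results of these data known, so the check is not independent of them. Of 13 sinusoidal identity genes past the floor, 6 had chosen the cells. The other 7 had a median log2 ratio of 0.09, with a range from -0.42 to 0.79, 4 above 0 and none past 2-fold. Over all 13, rule genes included, the median was -0.01 with mitochondrial and ribosomal RNA transcripts left out of the total and -0.27 at the 10% mitochondrial limit.

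The 2 genes of the threshold describe who was inside it. Wnt2 and Kit were both detected in 40 of 61 Control members (65.6%) and 242 of 314 PCB126 members (77.1%). Members just inside, with exactly 2 UMIs, were 25 in Control and 47 in PCB126, and cells just outside, with 1 UMI, were 26 and 46. The median member had 3 Wnt2 plus Kit UMIs in Control and 5 in PCB126, and the highest 17 and 32. Kit was also seen in 25.3% of PCB126 leukocytes and 4.70% of Control leukocytes, and Wnt2 in 1.16% and 0.149%.

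Pericentral cells took 39.9% of the sinusoidal cells in Control (61 of 153, exact binomial interval 32.1 to 48.1) and 73.7% in PCB126 (314 of 426, 69.3 to 77.8). The ratio of these shares was 1.85 (1.53 to 2.30), and it was 1.49 with a threshold of 1 UMI and 2.66 with 3. The share rests on the genes that define it and is a description. Median depth was close, at 5646 UMIs per pericentral cell in Control and 5699.5 in PCB126. After thinning every barcode to 2000 UMIs before the rule was applied, the shares were 25.1% and 49.2%. Mitochondrial share was not alike, with a median of 11.8% in Control members and 15.03% in PCB126 members. Another 11 Control and 324 PCB126 barcodes met every condition but the mitochondrial one, with over 20% to 50%. With the limit at 50% the pericentral shares were 31.3% and 56.1%, and at 10% they were 38.5% and 81.1% with only 15 and 43 members.

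Zonation genes that the rule did not read followed the same axis in both libraries. Of 6 other pericentral genes, 6 were higher in pericentral than in midzonal and periportal cells in Control and 6 in PCB126. Of 7 other periportal genes, 7 were lower in Control and 7 in PCB126. Both lists were written with earlier results of these data known. Over 2864 genes past the floor, 1617 were higher in pericentral cells in Control and 1685 in PCB126, with a median log2 ratio of 0.07 in both.

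Among the Wnt ligands, Wnt9b was sparse. It had 5 UMIs in 2 of 61 Control pericentral cells and 51 UMIs in 41 of 314 PCB126 cells (13.1%), with 0 of 1339 and 1 of 344 leukocytes. Its zone ratio was 2.10 in Control, where it rested on 5 against 3 UMIs (interval 0.408 to 13.5) and on 3.28% against 3.26% of cells, and 12.9 in PCB126. The PCB126 ratio rested on 51 UMIs against a single UMI in 1 of 112 midzonal and periportal cells. Between the libraries the Wnt9b log2 ratio was 0.81 overall and -0.96 in cells with at most 10% mitochondrial UMIs. The transcription factor Lhx6 had zone ratios of 16.4 and 14.8, from 13 and 117 pericentral UMIs. Among midzonal and periportal cells only 1 of 92 in Control and 2 of 112 in PCB126 had a Lhx6 UMI, with at most 1 each. These ratios therefore rest on very few UMIs outside the class. Rspo3, whose summed limit was part of the rule, stood at 90.5 CPM in Control and 65.6 CPM in PCB126. Its ratio of 0.726 had an interval of 0.488 to 1.11.

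Other pericentral genes showed smaller zone ratios. Ptgs1, cyclooxygenase 1, was 2.66 times higher in Control (1.83 to 3.92) and 2.00 times in PCB126 (1.58 to 2.56). The adhesion molecule Cdh13 gave 1.78 and 2.22, thrombomodulin (Thbd) 1.42 and 1.33, and the fatty acid carrier Fabp4 1.35 and 1.52. On the periportal side, Ntn4, a secreted netrin, was 3.37 times lower in Control pericentral cells (2.74 to 4.19) and 3.65 times lower in PCB126 (3.08 to 4.33). The scavenger receptor Msr1 was 5.79 and 3.92 times lower. The Notch ligand Dll4 had zone ratios of 0.65 and 0.44 and the ephrin ligand Efnb2 0.47 and 0.35, and the matrix protein Ltbp4 gave 0.40 and 0.61.

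Along the Wnt2 plus Kit axis these genes went in steps rather than at the threshold alone. In PCB126, Ntn4 went from 772 CPM in cells with 0 UMIs to 210 at 1, 199 at 2, 212 at 3 to 4, 136 at 5 to 9 and 96.9 CPM at 10 or more. In Control it went from 1277 CPM to 556, 410, 367, 205 and 187 CPM, with 13, 16 and 7 cells in the last 3 bins. Msr1 went from 220 to 25.4 CPM in PCB126 and from 529 CPM to 0 in Control. Wnt9b and Lhx6 together went from 6.77 to 138 CPM and from 3.28 to 146 CPM. Ntn4 was therefore lower in PCB126 than in Control in each of the 6 bins, whereas Msr1 was lower in Control at 1 UMI and at 10 or more.

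**Figure D2:**
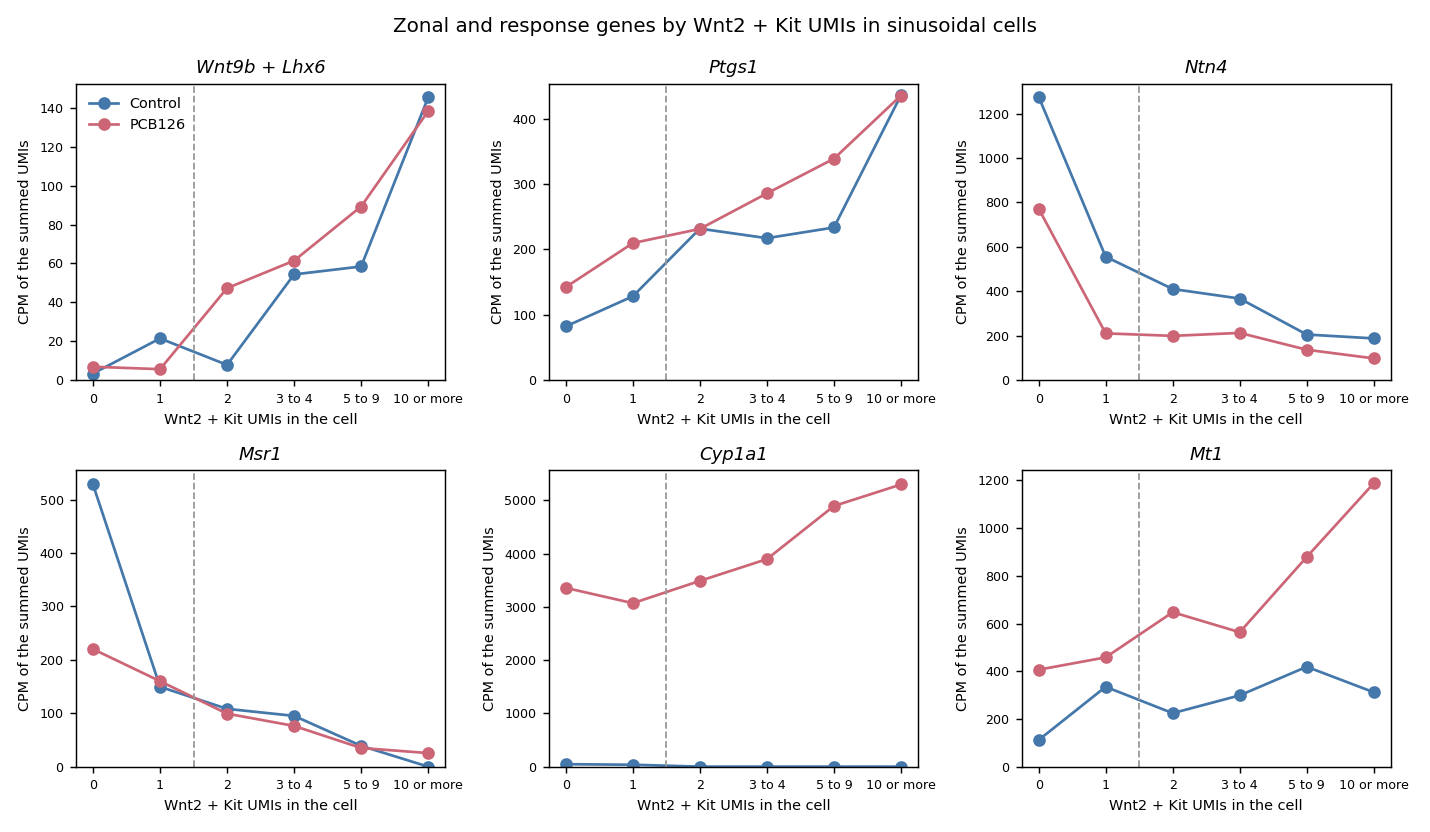
CPM of summed UMIs (vertical axes) against the Wnt2 plus Kit UMIs of the cell (horizontal axis, 6 bins) in all sinusoidal cells of the Control (blue) and PCB126 (red) libraries. The dashed line marks the threshold of the class, Wnt9b plus Lhx6 and Ptgs1 go up and Ntn4 and Msr1 go down from left to right in both libraries apart from single bins, and Cyp1a1 stays at or under 46.0 CPM in Control. Control bins from 3 UMIs on hold 13, 16 and 7 cells.

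Genes past a 2-fold difference between the zones in both libraries were few. Of 2864 genes past the floor, 9 were higher in pericentral cells (0.314%) and 20 were lower (0.698%), the rule's own genes left out. Ranked by the smaller bound of the ratio's interval, the named genes higher in pericentral cells began with Ighm, Igkc and Jchain, which are antibody genes. In PCB126 1 barcode held 99.8%, 98.6% and 97.8% of the pericentral UMIs of these 3 genes. In Control the highest barcode held 65.6%, 59.4% and 56.25%. There, 2 barcodes held 422 of the 525 pericentral UMIs of the 3 genes, and the midzonal and periportal sum was 154. The zone ratios of these antibody genes, which count among the 9, thus rest largely on single barcodes. Others named were Cfap43 (zone ratios 4.31 and 2.80), Ptgs1, the integrin subunit Itga8 (3.77 and 3.06), the galectin Lgals1 (3.59 and 3.32), the zinc transporter Slc39a8 (2.12 and 1.95) and the ribonuclease Rnase4 (2.40 and 2.48). Cfap43 was detected in 18 of 61 Control and 135 of 314 PCB126 pericentral cells, with at most 4 UMIs in a cell, so its pericentral level did not rest on a few barcodes. Its midzonal and periportal sums were only 7 UMIs in Control and 18 in PCB126. The intervals of its zone ratios were 1.80 to 11.9 and 1.73 to 4.82.

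Genes lower in pericentral cells were led by Atp13a3, 121 times lower in Control from 1 UMI (interval 21.4 to 4803) and 15.3 times lower in PCB126 (8.38 to 29.8). Vwf, von Willebrand factor of larger vessels, was 13.6 times lower in Control (6.41 to 34.6), and its PCB126 pericentral sum was 1 UMI against 67.2 CPM in the other zone. Ednrb, the endothelin B receptor, was 19.6 and 7.31 times lower, from 3 pericentral UMIs in 1 Control cell (interval 6.45 to 97.2) and 38 UMIs in PCB126. The transcription factor Mecom was 7.55 and 6.56 times lower, from 6 UMIs in 4 Control cells (3.26 to 21.4) and 26 UMIs in PCB126. The same ranking named Ntn4, Msr1 and 4 hemoglobin genes. The 4 hemoglobin genes were 2.97 to 3.36 times lower in Control pericentral cells and 4.05 to 4.72 times lower in PCB126, with most of their pericentral UMIs in 1 barcode of each library.

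Hemoglobin and other foreign transcripts also differed between the libraries within the pericentral class. The 5 erythrocyte markers summed to 5120 CPM in Control and 482 CPM in PCB126. Single barcodes held 67.9% to 79.1% of the UMIs of each of 4 hemoglobin genes in Control and 55.0% to 79.2% in PCB126. Without them the log2 ratio of Hba-a1 went from -3.13 to -2.02 and that of Hba-a2 from -3.26 to -2.36. That of Hbb-bs hardly moved, from -3.58 to -3.40, and that of Hbb-bt went the other way, from -3.59 to -4.17. The 9 neutrophil markers summed to 158 and 49.8 CPM, with 3 and 2 at 0, and the 12 hepatocyte markers to 351 and 349.9 CPM, with 1 at 0 in each. The 10 macrophage markers summed to 19.8 and 12.7 CPM with Clec4f at 0 in both, and the 7 monocyte markers to 14.1 and 11.6 CPM. The 9 lymphocyte markers came to 93.3 and 103 CPM, nearly all Jchain, with Cd3e at 0. The 8 stellate markers gave 62.2 and 102 CPM, with Dcn and Lrat at 2 UMIs each in Control and 0 in PCB126. The 7 cholangiocyte markers were at 5.65 and 446 CPM, with 600 PCB126 UMIs of Spp1, 481 of them in 1 barcode. The 7 arterial and portal endothelial markers, 4 of which the rule limited, were at 107 and 456 CPM, and 83.2% of the 689 PCB126 UMIs of Clu, one of them, were in 1 barcode. The 6 central vein markers, 4 of them limited likewise, were at 175 and 99.5 CPM. The part of these transcripts in the results below was not tested. Of the members, 2 Control and 8 PCB126 barcodes held at least 10 UMIs of hepatocyte, cholangiocyte, neutrophil or antibody markers. Hemoglobin was not among these markers, so leaving these barcodes out hardly touched it, with a log2 ratio of -3.07 for Hba-a1. No barcode shared by the libraries was a member, out of 3 such barcodes.

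Between the libraries, 149 of 2949 genes past the floor were at least 2-fold higher in PCB126 pericentral cells (5.05%) and 72 were at least 2-fold higher in Control (2.44%). The first group thus made up 67.4% of the genes past 2-fold. Without the barcodes that held markers of other cells the counts were 133 and 74. That split depended on scaling. With mitochondrial and ribosomal RNA transcripts left out of the total, 163 were higher in PCB126 and 154 in Control (51.4%), and the median log2 ratio of all genes moved from 0.05 to -0.05. With ratios centred on their median the counts were 113 and 88 (56.2%). Gm42418, which overlaps ribosomal RNA, alone took 20.4% of the Control UMIs and 14.1% of the PCB126 UMIs of these cells. In midzonal and periportal cells 99 of 2813 genes were higher in PCB126 (3.52%) and 81 in Control (2.88%).

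**Figure D3:**
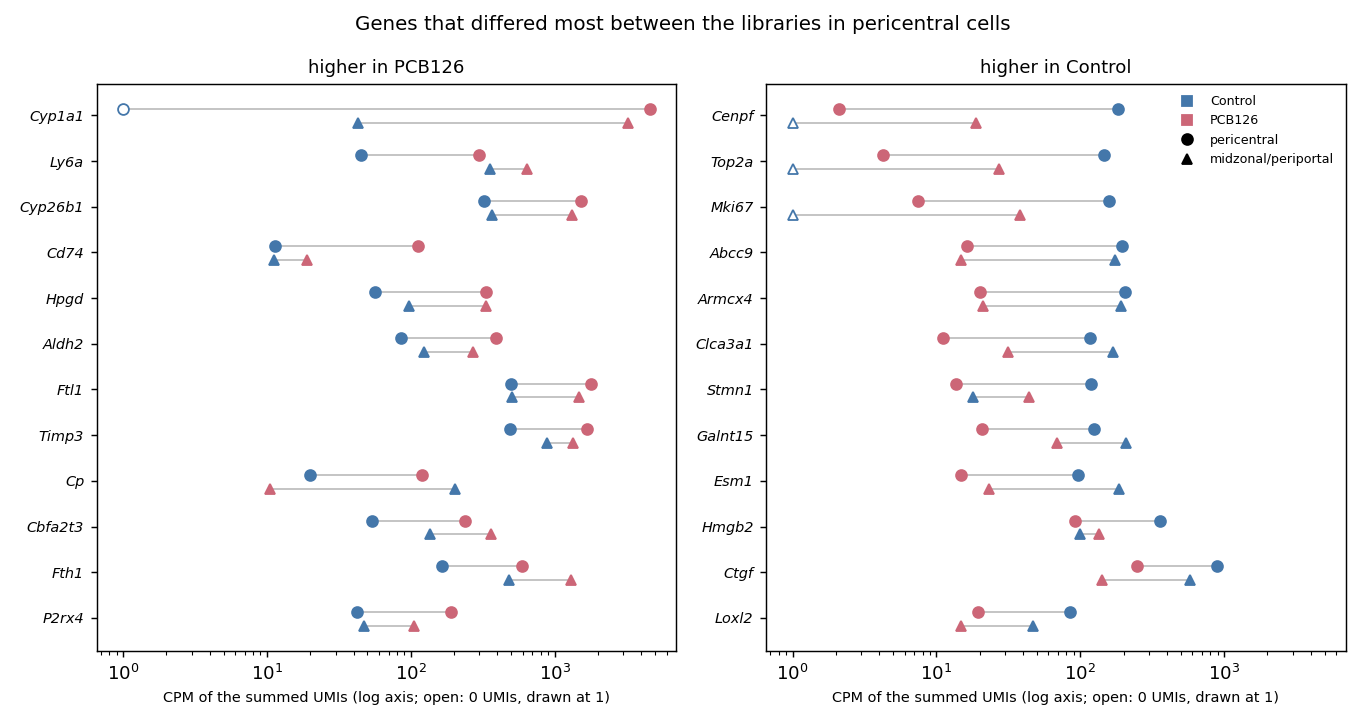
CPM (log axis) of the 12 named genes higher in PCB126 (left) and the 12 higher in Control (right), in pericentral cells (circles) and midzonal/periportal cells (triangles) of the Control (blue) and PCB126 (red) libraries. Open symbols stand for 0 UMIs and are drawn at 1. Cp and the cell cycle genes Cenpf, Top2a, Mki67, Stmn1 and Hmgb2 lie in opposite order in the 2 zones, and in the midzonal and periportal cells 1 PCB126 barcode holds all 40 UMIs of Cenpf, Top2a and Mki67.

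The 12 named genes higher in PCB126 were those whose interval stayed farthest above 1. Metabolic enzymes made up several of them. Cyp26b1 (chr6:84571414-84593908, minus strand), which degrades retinoic acid, stood at 322 CPM in Control and 1536 CPM in PCB126, a ratio of 4.77 (3.95 to 5.80). It was seen in 37 of 61 Control cells (60.7%) and 296 of 314 PCB126 cells (94.3%), and in 3.49% of PCB126 leukocytes. Per cell the median was 1.76 UMIs per 10000 in Control, with a highest value of 23.6, and 12.3 in PCB126, with a highest value of 64.8, so the libraries overlapped. Hpgd, which inactivates prostaglandins, was at 56.5 and 334 CPM (5.91, 3.79 to 9.74), in 11 of 61 and 187 of 314 cells against 2.09% and 9.30% of leukocytes. Aldh2, mitochondrial aldehyde dehydrogenase, was at 84.8 and 390 CPM (4.59, 3.19 to 6.86).

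Iron storage and matrix genes followed. The ferritin light chain Ftl1 stood at 495 and 1779 CPM (3.59, 3.09 to 4.21). It is abundant in leukocytes, of which 98.6% and 95.3% had a UMI, so its share of positive cells says little. The heavy chain Fth1 was at 164 and 591 CPM (3.61, 2.77 to 4.78), with 22.5% of the PCB126 UMIs in 1 barcode. Its log2 ratio of 1.84 was 1.57 without the highest barcode of each library and 0.41 with a Wnt2 plus Kit threshold of 1. Timp3, an inhibitor of matrix metalloproteinases, was at 486 and 1684 CPM (3.46, 2.97 to 4.06), and seen in 50 of 61 and 311 of 314 cells.

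The remaining named genes were of mixed kinds. Ly6a, the surface protein Sca-1, was at 45.2 and 296 CPM (6.54, 3.99 to 11.5). The transcriptional corepressor Cbfa2t3 was at 53.7 and 238 CPM, and P2rx4, an ATP-gated channel, at 42.4 and 191 CPM. Cd74, the invariant chain of MHC class II, had 4 and 212 UMIs, with 43.4% of the latter in 1 barcode. Its log2 ratio of 3.14 was 2.69 without the highest barcode of each library and 2.45 without the barcodes that held markers of other cells, and -0.14 when the rule was applied after thinning to 2000 UMIs. Cp, ceruloplasmin, had 80.6% of its 227 PCB126 UMIs in 1 barcode, and its log2 ratio of 2.51 was -3.46 without the barcodes that held markers of other cells. In midzonal and periportal cells 11 of these 12 genes were also above a ratio of 1, all but Cp, beside 1593 of 2813 genes in all. For Cd74 this rested on 5 and 9 UMIs, and the interval of its ratio of 1.68 (0.506 to 6.39) included 1.

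Of the 12 named genes higher in Control, 5 are cell cycle genes. Cenpf, Top2a and Mki67, which mark dividing cells, together had 173 UMIs in 6 Control cells, of which 1 cell held 63, and 26 UMIs in 8 PCB126 cells. At least 10 such UMIs were found in 3 of 61 Control and 1 of 314 PCB126 members. Stmn1, high in dividing cells, was seen in 4 Control and 16 PCB126 cells, with 45.2% of its Control UMIs in 1 barcode. Hmgb2, also high in dividing cells, was seen in 29 and 115 cells. It had 28.3% of its Control UMIs in 1 barcode, and its log2 ratio of -1.97 was -1.65 without the highest barcode of each library.

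The other 7 were of mixed kinds. Abcc9, a regulatory subunit of ATP-sensitive potassium channels, was at 195 CPM in Control and 16.4 CPM in PCB126, 11.9 times higher in Control (7.68 to 18.8), from 29 and 25 positive cells. Armcx4, a gene on chromosome X, was 10.1 times higher (6.74 to 15.4) and Clca3a1, of the chloride channel regulator family, 10.4 times (6.02 to 18.6). Galnt15, a glycosyltransferase, was 6.03 times higher in Control (3.83 to 9.52) and Loxl2, a matrix crosslinking enzyme, 4.33 times (2.58 to 7.20). Esm1, endocan, was 6.49 times higher (3.82 to 11.1), but 64.3% of its 28 PCB126 UMIs were in 1 barcode, and its log2 ratio of -2.69 was -3.96 without the highest barcode of each library and -0.73 in cells with at most 10% mitochondrial UMIs. Ctgf (chr10:24595442-24598683, plus strand), a matricellular protein induced by YAP and TGF-beta, was at 888 and 248 CPM (3.58 times, 3.09 to 4.13). It was seen in 47 of 61 Control cells (77.0%) and 119 of 314 PCB126 cells (37.9%), and in 1.19% and 0.872% of leukocytes. These 7 genes were higher in Control in midzonal and periportal cells too, where 1593 of 2813 genes had a ratio above 1. For Loxl2 this rested on 21 Control and 7 PCB126 UMIs.

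Of the 12 genes higher in PCB126, 9 were found among the RefSeq promoter windows and 5 of them held the GCGTG core, in 5 of their 12 windows (41.7%). Of the 12 higher in Control 9 were found, and 2 of their 9 windows (22.2%) held it, beside 28.2% of all windows.

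Among the lists with more than 2 genes past the floor, iron and metal binding genes had the highest median. Of 7 members 5 were past the floor, 5 were above a ratio of 1 and 4 past 2-fold, with a median log2 ratio of 1.45 beside 0.05 for all genes, of which 1606 of 2949 were above 0. Mt1, a metallothionein that binds zinc and other metals, stood at 308 and 845 CPM (2.74, 2.26 to 3.36), and Mt2 at 102 and 232 CPM (2.28, 1.62 to 3.30). Mt1 was seen in 67.2% of Control cells and 89.2% of PCB126 cells, against 12.9% and 20.1% of leukocytes, and per cell the medians were 1.90 and 6.52 UMIs per 10000 with overlap. Along the Wnt2 plus Kit axis it went from 406 to 1188 CPM in PCB126, while Control bins lay between 112 and 419 CPM. The iron exporter Slc40a1 (ferroportin) had a log2 ratio of 0.13.

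The genes of the NRF2 and antioxidant list were mostly higher in PCB126 pericentral cells, but some of them rested on few Control UMIs. Of 18 members 8 passed the floor, with a median log2 ratio of 0.94 that came to 0.14 after thinning to 1000 UMIs. Of these 8, 7 were above 1, beside 1606 of 2949 genes in all, and 4 past 2-fold, beside 5.05%. In midzonal and periportal cells 4 of 7 members past the floor were above 1, beside 1593 of 2813 genes in all, with a list median of 0.29. Txnrd1, thioredoxin reductase, had 9 and 196 UMIs (4.08, 2.10 to 9.05), in 11.5% of Control cells and 36.6% of PCB126 cells. Leukocytes had it more often in Control (40.2%) and in 20.3% of cells in PCB126. Nfe2l2, which encodes NRF2, was at 155 and 332 CPM (2.14, 1.62 to 2.87). Gclm, of glutathione synthesis, had 12 and 137 UMIs (2.14, 1.18 to 4.24), and Prdx1, a peroxiredoxin, 74 and 726 (1.84, 1.44 to 2.37). Mgst1, the remaining gene past 2-fold, had 42.2% of its PCB126 UMIs in 1 barcode. Its log2 ratio of 0.96 was -0.08 without the barcodes that held markers of other cells. Among respiratory chain genes encoded in the nucleus, 13 of 14 members past the floor had a ratio above 1 and 3 were past 2-fold, with a list median of 0.61. The highest was Cox7a2, a subunit of cytochrome oxidase, at 48.1 and 164 CPM.

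Antigen presentation by MHC class I was higher across its list. All 9 members past the floor of 11 listed were above 1, beside 1606 of 2949 genes in all, and 5 were past 2-fold, beside 5.05%. The list median was 1.18, and it stayed between 0.68 and 1.19 over the alternatives run. The class I chain H2-D1 stood at 701 and 1589 CPM (2.27, 1.99 to 2.59), with per-cell medians of 6.58 and 15.1 UMIs per 10000. Leukocytes had H2-D1 in 98.7% and 99.7% of cells, with medians of 15.3 and 17.3 per 10000. H2-K1 was at 1094 and 1813 CPM (1.66), the non-classical chains H2-T23 at 167 and 501 CPM (3.01) and H2-Q7 at 62.2 and 229 CPM (3.68), and B2m, their shared light chain, at 1589 and 2485 CPM (1.56). H2 genes are close copies of each other, so reads may have been split or lost between them. The peptide transporter gene Tap1, below the floor, had a ratio of 0.881 (0.517 to 1.59). Interferon-stimulated genes had a median of 0.34 over 7 of 18 members, 4 above 1 and 3 below, and it turned to -0.21 with mitochondrial and ribosomal RNA transcripts out of the total and was also below 0 under 3 other alternatives. It was 0.08 without the barcodes that held markers of other cells.

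The angiocrine and BMP list, which holds secreted signals and also genes that act within the cell, was mostly higher in PCB126. On this list 13 of 16 members passed the floor, with a median log2 ratio of 0.73. Of these, 10 were above 1, beside 1606 of 2949 genes in all, and 5 past 2-fold, beside 5.05%. Those 5 were Bmp6, Inhbb, Id1, Klf4 and Nos3, of which only Bmp6 and Inhbb encode secreted factors. Bmp2, which with Bmp6 drives hepcidin in hepatocytes, stood at 1233 and 2052 CPM (1.66, 1.51 to 1.84), and Bmp6 at 96.1 and 215 CPM (2.24, 1.58 to 3.28). Bmp2 was seen in 57 of 61 Control and 312 of 314 PCB126 cells, against 0.896% and 2.03% of leukocytes. Inhbb, an activin subunit, was at 124 and 253 CPM (2.03, 1.49 to 2.84). The BMP target Id1 had 9 and 181 UMIs (3.77, 1.94 to 8.37; a log2 ratio of 1.84, and 1.49 without the barcodes that held markers of other cells) and Id3 a ratio of 1.21. Flow-responsive Klf4 was at 56.5 and 154 CPM (2.71, 1.73 to 4.51), Klf2 at 243 and 394 CPM (1.62) and Nos3, endothelial nitric oxide synthase, at 48.1 and 102 CPM (2.11, 1.29 to 3.71). Edn1, endothelin 1, was below the floor and had 14 Control UMIs in 12 cells against 7 PCB126 UMIs in 6 cells, 10.7 times higher in Control by CPM (4.03 to 31.3). That log2 ratio of -3.37 was -0.04 after thinning to 1000 UMIs.

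Of 17 Wnt and R-spondin genes 8 passed the floor, and 2 of these, Wnt2 and Rspo3, were read by the rule. Among the other 6, 4 were above 1 and none was past 2-fold, with a median log2 ratio of 0.28. The receptor Lrp6 had the highest log2 ratio among them, 0.86, and the Wnt target Axin2 had 0 and 6 UMIs. Wls, needed for Wnt secretion, had 0.39. On the KIT list 5 of the 6 members past the floor other than Kit itself were above 1, beside 1606 of 2949 genes in all. The 6 members had a median of 0.09. With Kit the median was 0.10, and -0.01 with mitochondrial and ribosomal RNA transcripts out of the total. The ligand Kitl had a log2 ratio of 0.89.

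Inflammatory adhesion molecules were higher in Control. Icam1 stood at 124 CPM in Control and 57.7 CPM in PCB126 (2.16 times higher in Control, 1.48 to 3.09), and Vcam1 at 155 and 63.5 CPM (2.45 times, 1.75 to 3.40). Vcam1 was seen in 49.2% and 17.8% of cells, with 0.523% and 0.581% of leukocytes as background. Icam1 was seen in 36.1% and 22.0% of cells, below the 44.7% and 33.7% of leukocytes, so its CPM can hold RNA of other cells. Tnfaip3, a brake on NF-kB, was below the floor with 13 and 18 UMIs (3.86 times, 1.74 to 8.33). Over the 4 of 14 members of the list past the floor the median was -0.48, with 2 above 1 and 2 past 2-fold in Control. Of all 2949 genes, 1606 were above 1 and 2.44% past 2-fold in Control. The cytokine genes Il6 and Tnf were at 0 in both libraries.

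Lipid genes held members on both sides. Of the adenosine genes, 2 of 2 past the floor of 7 listed were above 1, and so were 3 of 3 retinoid genes past the floor of 11 listed. Of all 2949 genes past the floor, 1606 were above 1. Plpp3, a phosphatase of bioactive lipids, was at 876 and 2219 CPM (2.53, 2.26 to 2.85) and seen in 314 of 314 PCB126 cells. The cholesterol exporter Abca1 was 2.32 times higher in Control (1.77 to 3.02), and the fatty acid translocase Cd36 2.90 times (2.56 to 3.27), in 93.4% of Control cells and 65.9% of PCB126 cells. The retinoic acid receptor Rarg was at 59.4 and 123 CPM (2.07, 1.32 to 3.41). The adenosine transporter Slc29a1 was at 351 and 717 CPM (2.04, 1.70 to 2.48). Below the floor, Ada, which degrades adenosine, had 5 and 152 UMIs (5.69, 2.39 to 17.8). The receptor Adora2a, also below it, had 22 and 15 UMIs (7.83 times higher in Control, 3.88 to 16.2). Ltc4s, leukotriene C4 synthase, likewise below the floor, had 2 and 125 UMIs (11.7, 3.17 to 97.7).

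Vessel genes showed no common direction. For the counts below, 1606 of all 2949 genes past the floor were above 1. The VEGF and tip cell list had 4 of 9 members above 1 and a median of -0.15 without Kdr, a rule gene. With Kdr the median was -0.03, which lay between -0.28 and 0.17 over the alternatives and so took either sign. The VEGF coreceptor Nrp1 was at 605 and 1267 CPM (2.09, 1.82 to 2.42), whereas Pdgfb was 2.56 times higher in Control (1.66 to 3.88). Genes of capillarization, the loss of sinusoidal character, had 5 of 6 members below 1 and a median of -0.23. Plvap, the diaphragm protein of fenestrae, was 2.08 times higher in Control (1.57 to 2.73) and the water channel Aqp1 was at 1252 and 2375 CPM. Junction genes had a median of 0.16, with the claudin Cldn5 (2.05, 1.58 to 2.71) and the connexin Gja4 (2.38, 1.62 to 3.63) past 2-fold. Basement membrane genes were below 1 for 6 of 7 members, among them the perlecan gene Hspg2 (1.71 times higher in Control, 1.47 to 1.98), and the exception was Timp3. Scavenger and endocytic genes had a median of -0.01 both with and without the 2 rule genes on that list, coagulation genes 0.08 and immediate early genes 0.05, and each of these 3 medians took the other sign under at least 7 alternatives. F8, coagulation factor VIII, was 1.59 times higher in Control (1.44 to 1.76). All 6 heat shock genes past the floor lay above 1 (median 0.45, and 0.27 without the barcodes that held markers of other cells).

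**Figure D4:**
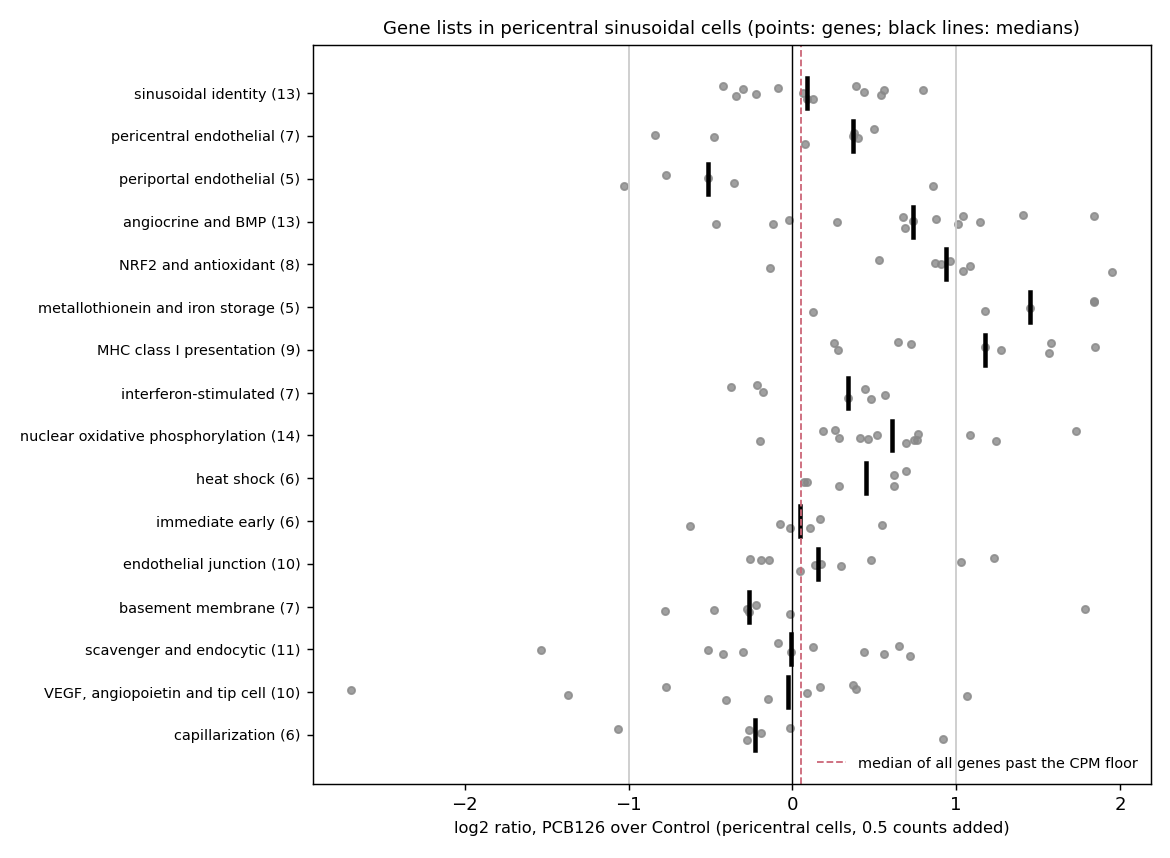
Log2 ratio of PCB126 over Control (horizontal axis, 0.5 counts added) of the members of 16 gene lists in pericentral cells, with the number of members past the 50 CPM floor in brackets. Points are genes, rule genes included, black lines are list medians, and the dashed line is the median of all 2949 genes, 0.05. The metallothionein and iron storage, MHC class I and NRF2 medians lie at 1.45, 1.18 and 0.94.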

How the data were processed

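Gene-by-barcode UMI counts of the 2 libraries were used as the authors deposited them, as filtered Cell Ranger matrices of whole, unnormalized counts. Cell Ranger 6.0.0 made them per the file headers, but version 6.1.1 is listed, beside Seurat 4.0.1, in the submitters' processing notes. No build is named in the sources used here. Positions are those of GRCm38 in the reference annotation. The members and gene lists were chosen with earlier results of these data known. UMIs were summed over the cells of each library and class and divided by all UMIs of the sum. Ratios carry exact conditional binomial intervals (95%), and log2 ratios have 0.5 counts added. Gene counts cover genes with a mean of at least 50 CPM. Named genes were the 12 in each direction whose interval stayed farthest from 1, without mitochondrial, ribosomal, Xist and Y-linked, immunoglobulin and other-cell marker genes. Between zones they were the 10 in each direction whose smaller bound over both libraries was largest. One of these is not reported here. Doublets were kept, and an alternative left out the 28 Control and 11 PCB126 cells with the highest Scrublet scores, 2 and 1 of them members. The pericentral sums held 353720 UMIs in Control and 1889207 in PCB126, so 3 counts, the limit for a sum of 0, correspond to 8.48 and 1.59 CPM. Intervals cover counting error only. The calculation was tested on simulated data. Python 3.11.15, numpy 2.4.6, scipy 1.17.1, pandas 2.3.3, scanpy 1.11.5 and matplotlib 3.10.9 were used.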

Additional observations from a re-analysis of the deposited data

Results flagged for a closer look

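Over 1.5-fold differences in opposite directions in the pericentral and the midzonal and periportal cells, with intervals beyond 1 in both, were seen for 9 genes, and none of these differences between zones was tested. The log2 ratio of PCB126 over Control was 1.49 in pericentral and -1.19 in midzonal and periportal cells for Dbi, and 0.54 and 0.36 without the barcodes that held markers of other cells. For Cp it was 2.51 and -4.14, and -3.46 and -0.95 without them. Mgst1 had 0.96 and -1.24, and -0.08 and -0.36 without them. Bsg had 0.57 and -1.28, and 0.02 and -0.90 without them. St3gal5 had 0.84 and -0.64, and 0.57 and -0.42 without them. Mfge8 had 0.64 and -0.80, and 0.30 and -0.36 without them. Tpm1 had 0.62 and -0.73, and 0.64 and -0.69 without them. Id2 had 0.88 and -1.38, and 0.36 and -1.11 without them. Fnip1 went the other way with -0.63 and 0.91, and -0.60 and 0.75 without them.

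A signal also appeared in barcodes that the report does not count. The 324 PCB126 barcodes with over 20% to 50% mitochondrial UMIs that met the rest of the rule held 4950 Cyp1a1 UMIs, or 4058 CPM, and the 11 such Control barcodes held 0. The difference was not tested.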

How the results depend on the processing

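Of the shares, gene counts and list medians, 367 values under the alternatives listed first stayed within their limits and 36 moved, and of the named genes 659 stayed, 72 moved and 4 took the other sign. Under the 2 alternatives chosen after seeing the data (barcodes with other-cell markers left out, and each gene without its highest barcode), 54 and 93 stayed, 1 and 4 moved and 1 took the other sign. List medians were counted by the size of their move, so a change of sign near 0 could stay within the limits. The VEGF and immediate early medians took the other sign under 8 alternatives each, and the coagulation and scavenger medians under 7 each. Interferon-stimulated genes did so under 4, pericentral and sinusoidal genes under 2 each, and AHR complex, KIT and matricellular genes under 1 each. The ratio of pericentral shares was 1.49 with a threshold of 1 UMI and 2.66 with 3. Genes at least 2-fold higher in PCB126 numbered 99 with a threshold of 1 UMI, 432 and 85 with at most 10% and 50% mitochondrial UMIs, 326 after thinning to 1000 UMIs, and 403, 66 and 4144 with floors of 20 and 100 CPM and no floor. Genes higher in Control numbered 248 at 10% mitochondrial, 154 with mitochondrial and ribosomal RNA transcripts out of the total, 259 after thinning, 44 without each gene's highest barcode, and 244, 37 and 1637 with those floors. Genes higher in the pericentral zone numbered 22 with a threshold of 1 UMI, 4 with the rule applied after thinning to 2000 UMIs, 52 at 10% mitochondrial, 35 after thinning to 1000, and 32, 3 and 549 with those floors. Genes lower there numbered 10 with the thinned rule, 49 and 8 at 10% and 50% mitochondrial, 41 at 20 CPM and 312 with no floor. After thinning, the median log2 ratio was -0.22 for pericentral, 0.14 for NRF2, -1.32 for inflammatory and 0.30 for matricellular genes. At 10% mitochondrial it was -1.29 for periportal, -0.96 for capillarization and -0.89 for basement membrane genes. Inflammatory genes had -1.21 with no floor and coagulation genes -0.60 at 20 CPM. The Cp log2 ratio in pericentral cells was -0.71 with a threshold of 1 UMI, -3.00 with the thinned rule, -0.60 after thinning and -3.46 without barcodes of other cells, and that of Cd74 was -0.14 with the thinned rule. The cause of these moves was not tested, apart from the floors, which change how many genes are counted.

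With 61 Control cells, genes near the floor rest on few UMIs, and with 1 library a group no alternative speaks to variation between mice. Subtracting free RNA was not run, since no barcode lay under 500 UMIs (the lowest had 534 in Control and 865 in PCB126). No paired analysis was possible because each group has 1 library and no result comes from a test.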
